A study of Mus musculus with 10 samples.

Results

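The genes described are the subunits of the ionotropic and metabotropic glutamate receptors and of the nicotinic acetylcholine receptors. They were taken as all protein-coding genes of the count table whose symbol begins with Gria, Grik, Grin, Grid, Grm or Chrn and matches the name of a known subunit, which gave 42 of 54532 genes, 26 for glutamate and 16 for nicotinic receptors. Brain RNA was sequenced from 10 mice, all homozygous (HO) knockouts of the phosphate transporter gene Slc20a2 carrying the tm1a(EUCOMM)Wtsi allele in every cell, and no wild-type library was analysed here. Of these, 6 received FTY720, a modulator of sphingosine-1-phosphate receptors, at 0.5 mg/kg in dimethyl sulfoxide by intraperitoneal injection 3 times a week for 12 weeks from the age of 1.5 months, and 4 received dimethyl sulfoxide alone as placebo on the same schedule. After perfusion each brain was divided into equal parts, one for RNA and the other for fixation, and which side or regions the RNA came from is not given in the sources used here. Each mouse has a name such as F1-622 or P3-612, in which the letter gives the treatment and the digit after it is 1 or 3, with no explanation of the digit in the labels or the study's methods. The digit 3 was borne by 3 FTY720 and 3 placebo mice, and the digit 1 by 3 FTY720 mice and 1 placebo mouse.

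Glutamate is the main excitatory transmitter of the brain. AMPA receptors (Gria genes) carry the fast synaptic current, NMDA receptors (Grin genes) pass calcium when glutamate and depolarization coincide, kainate receptors (Grik genes) tune transmission on both sides of the synapse, delta receptors (Grid genes) organize synapses through secreted cerebellins, and metabotropic receptors (Grm genes) act through G proteins. Nicotinic receptors (Chrn genes) are acetylcholine-gated channels built from alpha and beta subunits in neurons and from a separate set of subunits in muscle. In the textbook cerebellum, Grin2c and Grm4 are typical of granule cells, whereas Grin2b and Grik4 are better known from the forebrain.

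The libraries of the 2 digits stood apart before any receptor gene was considered. Total counts were 14772745 to 17421657 per mouse with the digit 1 and 16172806 to 18303981 with the digit 3. All 6 granule cell markers and all 4 Purkinje cell markers examined were higher with the digit 3, and their summed levels were 643 to 749 CPM (read counts scaled to the normalized library size) against 105 to 122 CPM for granule cells and 336 to 426 against 24.9 to 29.5 CPM for Purkinje cells. The 6 hindbrain Hox genes summed to 9.12 to 15.1 CPM with the digit 3 and had 0 counts in every mouse with the digit 1. Of the markers of cortex and hippocampus, 6 of 7 were lower with the digit 3 (208 to 251 against 315 to 355 CPM), as were all 6 of the striatum (366 to 594 against 559 to 709 CPM), 4 of 5 of microglia and 2 of 6 general neuronal markers, and 0 of 5 oligodendrocyte markers passed the test. Endothelial markers were higher in 2 of 5, the astrocyte list in 1 of 5, and 1 of 4 markers of the medial habenula and 1 of the 4 tested of 8 skeletal muscle markers were lower. When the GC and length trends of each library were removed, the astrocyte list had 0 higher and 1 lower, the striatum 3 lower and cortex and hippocampus 7 lower, and the counts of the other lists were as before. General neuronal markers were abundant in every library (4742 to 5784 CPM summed). The part of these shifts in the receptor values that follow was not tested, and in bulk RNA fewer cells of a type and less RNA per cell cannot be told apart. The targeted gene Slc20a2 was detected in every mouse (89 to 294 counts over the whole gene, which do not separate the exons on either side of the targeted insertion), at 6.31 to 9.43 CPM in digit 1 mice and 11.5 to 16.98 CPM with the digit 3, which passed between the digits (log2 0.73, standard error 0.15, adjusted p = 4.63e-03, edgeR), and it did not pass by treatment (log2 fold change -0.24, standard error 0.25, unadjusted p = 0.353, edgeR).

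The promoter sequences of 4 receptor genes are shown because they carry different numbers of GC boxes in genes that moved in opposite directions between the digits, and they were chosen after the values were seen. For 27 of the 42 genes RefSeq (GRCm38.p6) gave a sequence from 250 bases before to 50 bases after the annotated start. The last bases of that sequence stood whole in one of the gene's own GENCODE transcripts for 22 of the 27, among them Grin2c and Gria4 but not Grik5 and Grm2, whose windows reach only a short way into the gene bounds given here. Capitals mark GGGCGG, the GC box, read on both strands, which 35.9% of 27025 mouse promoters of this length held. These were the first listed promoter of each gene, with 1 chromosome left out. Grin2c and Gria4 were higher with the digit 3, and Grik5 and Grm2 were lower.
Grin2c, chr11:115267194-115267493, minus strand: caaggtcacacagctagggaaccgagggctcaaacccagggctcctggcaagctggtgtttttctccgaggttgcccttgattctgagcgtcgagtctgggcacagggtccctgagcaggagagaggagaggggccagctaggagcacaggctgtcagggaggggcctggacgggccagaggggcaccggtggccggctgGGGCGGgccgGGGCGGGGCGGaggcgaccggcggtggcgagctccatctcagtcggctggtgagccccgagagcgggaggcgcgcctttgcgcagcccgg
Gria4, chr9:4796185-4796484, minus strand: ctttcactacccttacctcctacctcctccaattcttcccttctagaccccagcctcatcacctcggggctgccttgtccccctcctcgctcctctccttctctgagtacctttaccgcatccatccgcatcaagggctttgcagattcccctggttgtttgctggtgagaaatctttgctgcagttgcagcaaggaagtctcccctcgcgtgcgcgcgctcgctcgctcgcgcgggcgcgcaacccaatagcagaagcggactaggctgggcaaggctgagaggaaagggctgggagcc
Grik5, chr7:25072320-25072619, minus strand: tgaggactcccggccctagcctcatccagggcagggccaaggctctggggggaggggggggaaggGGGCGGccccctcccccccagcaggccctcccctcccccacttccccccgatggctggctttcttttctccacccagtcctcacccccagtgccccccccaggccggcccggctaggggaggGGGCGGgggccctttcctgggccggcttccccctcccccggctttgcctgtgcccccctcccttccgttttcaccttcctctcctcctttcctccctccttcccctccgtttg
Grm2, chr9:106656060-106656359, minus strand: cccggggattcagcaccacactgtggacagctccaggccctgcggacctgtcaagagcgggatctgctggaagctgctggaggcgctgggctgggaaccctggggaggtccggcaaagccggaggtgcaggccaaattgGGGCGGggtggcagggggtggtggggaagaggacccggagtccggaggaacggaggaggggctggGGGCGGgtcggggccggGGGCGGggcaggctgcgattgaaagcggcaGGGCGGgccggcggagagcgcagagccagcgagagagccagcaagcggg
The Grin2c promoter held 3 GC boxes, the last of which overlap by 1 base, the Gria4 promoter had none in this window, the Grik5 promoter had 2 and the Grm2 promoter had 4. Among the receptor genes that passed the test between the digits, the 4 lower ones (Grik4, Grik5, Grin1 and Grm2) all held at least 1 GC box, and of the 5 higher ones with a RefSeq promoter, Grin2c alone held one. Of all 27 receptor promoters, 14 held at least 1 GC box. The median GC content was 71% over the 4 promoters of lower genes and 64.7% over the 5 of higher genes. It was 61.0% over the 27 receptor promoters and 52.7% over the 27025 mouse promoters. A second motif, CANNTG, the E-box, stood in 1 of the 4 and in 4 of the 5, against 20 of the 27 and 72.1% of the 27025. TATAAA stood in 0 of the 4 and in 1 of the 5, against 2 of the 27 and 14.2%. These matches describe letters in a window and are no evidence of binding.

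The first comparison asked which receptor genes differed between the digit 3 and digit 1 mice after allowing for treatment. Of the 42 genes, 36 had enough counts to be tested, 25 glutamate and 11 nicotinic, and 12 of the 36 (33.3%) passed an adjusted p of 0.05, against 28.4% of all 17665 genes tested (edgeR, quasi-likelihood test, Benjamini-Hochberg over all genes). All 12 were glutamate receptor genes, 8 higher and 4 lower with the digit 3, against 13.9% and 14.4% of all genes. The median log2 fold change was -0.0315 over the 36 receptor genes and -0.0107 over all genes tested. When trends on GC content and gene length were taken out of each library, 6 receptor genes were higher and 10 lower, against 11% and 13.5% of all genes (24.5% in either direction). That setting was chosen after seeing that libraries differed in GC trend, from 0.0546 to 0.287 log2 units per 10 percentage points of GC with the digit 1 and from -0.345 to 0.0783 with the digit 3. In 11 of the 36 receptor genes the levels of the digits did not overlap, as in 14.2% of all genes.

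**Figure D1:**
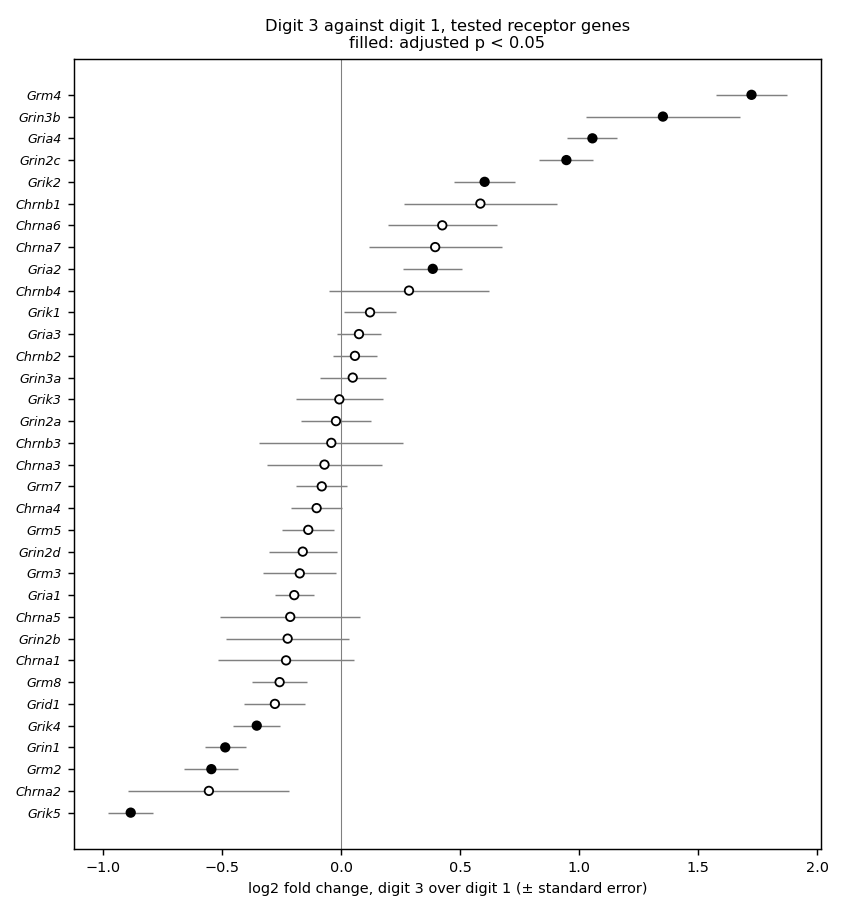
Log2 fold change of digit 3 over digit 1 (x axis) with its standard error for 34 of the 36 tested receptor genes (y axis), from the edgeR fit with treatment as a covariate. Filled points passed an adjusted p of 0.05; Grm4 lies farthest to the right and Grik5 farthest to the left, and no nicotinic gene is filled.

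Among AMPA receptor genes, Gria4 and Gria2 were higher with the digit 3. Gria4 (ENSMUSG00000025892, chr9:4417896-4796234), which encodes the GluA4 subunit of fast-gating receptors and whose promoter is shown above, was at 103 CPM in F1-622, 113 CPM in F1-624, 104 CPM in F1-918 and 92.4 CPM in P1-623, and at 178 to 242 CPM (median 210.4) in the 6 mice with the digit 3. Every mouse with the digit 3 was above every mouse with the digit 1, whatever its treatment. The difference was 2.08-fold (log2 1.05, standard error 0.11, adjusted p = 3.14e-05, edgeR). Gria2 (ENSMUSG00000033981, chr3:80681450-80802835), whose edited subunit makes the channel impermeable to calcium, was at 458, 614, 502 and 434 CPM in the same 4 mice and at 467 to 753 CPM (median 637) with the digit 3, so that the digits overlapped. Gria2 passed nonetheless (log2 0.38, standard error 0.12, adjusted p = 0.0342, edgeR), and it turned to -0.17 with GC and length trends removed. Gria1 (ENSMUSG00000020524, chr11:57011387-57330244), the AMPA subunit gene of highest level per length, did not pass (log2 -0.20, standard error 0.08, adjusted p = 0.0867), although its levels did not overlap, at 427 to 457 CPM in digit 1 mice against 345 to 417 CPM in the others. Gria3 did not pass either (log2 0.07, standard error 0.09). With GC and length trends removed both were lower, Gria1 at log2 -0.27 (adjusted p = 5.71e-03, edgeR) and Gria3, whose direction turned, at -0.30 (adjusted p = 0.0141, edgeR).

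Of the NMDA receptor genes, Grin2c and Grin3b were higher and Grin1 was lower. Grin2c (ENSMUSG00000020734, chr11:115249169-115267243), which encodes the GluN2C subunit of channels with weak magnesium block, was at 55.0, 73.1, 74.2 and 88.8 CPM in F1-622, F1-624, F1-918 and P1-623, and at 114 to 171 CPM (median 149) with the digit 3. The ranges were clearly separate, the lowest mouse with the digit 3 being F3-609. The difference was 1.93-fold (log2 0.95, standard error 0.11, adjusted p = 1.44e-04, edgeR). Grin1 (ENSMUSG00000026959, chr2:25291181-25319187), the obligatory glycine-binding subunit, was at 336, 376, 392 and 451 CPM in digit 1 mice and at 238 to 328 CPM (median 288) with the digit 3, again without overlap. It was 1.40-fold lower with the digit 3 (log2 -0.49, standard error 0.09, adjusted p = 1.86e-03, edgeR). An annotated antisense gene, Grin1os, covers 7706 bases of Grin1 and had 80 to 301 counts per mouse, and reads of such a pair cannot be told apart where strand was not used in counting. Shared bases given here are of whole gene spans, introns included, and shared exons were not examined. Grin3b (ENSMUSG00000035745, chr10:79970715-79977190), which encodes a glycine-binding GluN3 subunit, was near the detection limit at 0.213, 0.413, 0.420 and 0.524 CPM in digit 1 mice and 0.777 to 1.22 CPM (median 1.10) with the digit 3. Its log2 fold change was 1.35 (standard error 0.32, adjusted p = 9.58e-03, edgeR), but it lies under the abundant gene Tmem259 on the other strand for 2243 bases, so its reads are uncertain. Grin2a, Grin2b, Grin2d and Grin3a did not pass, with log2 fold changes of -0.02, -0.22, -0.16 and 0.05 (standard errors 0.15, 0.26, 0.14 and 0.14). Grin2d shares 5607 bases with Kdelr1 on the other strand, so its reads are uncertain too. With GC and length trends removed, Grin2a passed as lower at log2 -0.36 (adjusted p = 0.0148, edgeR) and Grin2b at -0.60 (adjusted p = 0.0109, edgeR).

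Kainate receptor genes moved in both directions. Grik5 (ENSMUSG00000003378, chr7:25009849-25072346), the high-affinity GluK5 subunit that needs a partner of the Grik1 to Grik3 group to form a channel, was at 288, 264, 302 and 369 CPM in F1-622, F1-624, F1-918 and P1-623, and at 133 to 206 CPM (median 176) with the digit 3. It was 1.84-fold lower with the digit 3 without overlap (log2 -0.88, standard error 0.10, adjusted p = 6.15e-05, edgeR). Grik4 (ENSMUSG00000032017, chr9:42518135-42944493), the other high-affinity subunit, was at 25.7, 26.1, 28.8 and 26.8 CPM against 18.3 to 23.1 CPM (median 21.1), likewise lower without overlap (log2 -0.35, standard error 0.10, adjusted p = 0.0198, edgeR). Grik2 (ENSMUSG00000056073, chr10:49094833-49788766), a low-affinity subunit that can form channels by itself, went the other way. It was at 55.9, 75.2, 66.1 and 59.0 CPM in digit 1 mice and at 75.2 to 110.1 CPM (median 95.6) with the digit 3, where the highest mouse with the digit 1, F1-624, and the lowest with the digit 3, P3-612, touched. The log2 fold change of Grik2 was 0.60 (standard error 0.13, adjusted p = 5.22e-03, edgeR), and it was 0.11 (adjusted p = 0.222) with GC and length trends removed. Grik1 and Grik3 had log2 fold changes of 0.12 and -0.0077 (standard errors 0.11 and 0.18) and did not pass.

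The delta receptor gene Grid1, whose product organizes synapses with cerebellins, was at 47.9 to 71.4 CPM in digit 1 mice and 39.8 to 55.2 CPM with the digit 3 and did not pass (log2 -0.28, standard error 0.13, adjusted p = 0.120, edgeR).

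Among metabotropic receptor genes, Grm4 was higher and Grm2 was lower with the digit 3. Grm4 (ENSMUSG00000063239, chr17:27422387-27521403), a presynaptic group III receptor that lowers transmitter release, was at 36.8, 38.4, 54.8 and 39.0 CPM in F1-622, F1-624, F1-918 and P1-623, and at 124 to 177 CPM (median 135) with the digit 3. All mice with the digit 3 stood far above the others, among which F1-918 was highest. The difference was 3.30-fold (log2 1.72, standard error 0.15, adjusted p = 7.65e-06, edgeR), the smallest p among the receptor genes. Grm2 (ENSMUSG00000023192, chr9:106643095-106656082), a group II autoreceptor, was at 47.0, 53.5, 54.3 and 44.0 CPM in digit 1 mice and 27.1 to 36.8 CPM (median 35.3) with the digit 3. It was 1.46-fold lower with the digit 3, without overlap (log2 -0.55, standard error 0.11, adjusted p = 4.73e-03, edgeR). The group I receptor Grm5 and the group II receptor Grm3, the most abundant of their groups per length over all mice, had log2 fold changes of -0.14 (standard error 0.11) and -0.17 (standard error 0.15). Grm7 and Grm8 had -0.08 (standard error 0.11) and -0.26 (standard error 0.12), and none of these 4 passed. With GC and length trends removed, Grm5 passed as lower at log2 -0.44 (adjusted p = 4.85e-04, edgeR) and Grm8 at -0.57 (adjusted p = 5.17e-03, edgeR).

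**Figure D2:**
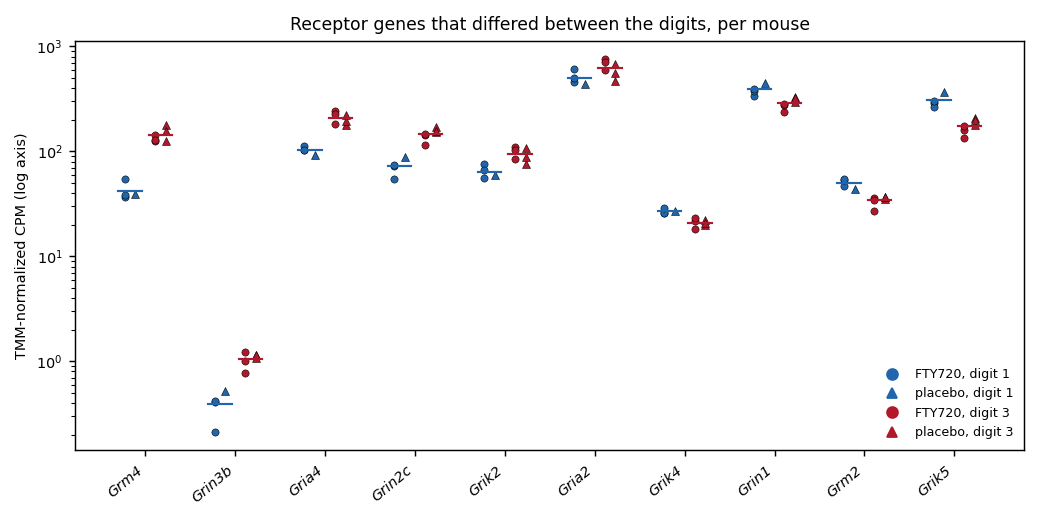
TMM-normalized CPM on a log axis for 10 of the 12 receptor genes that passed the test between the digits, with 1 point per mouse (circles FTY720, triangles placebo; blue digit 1, red digit 3) and a bar at each digit's mean. Grm4, Gria4 and Grin2c separate by digit and not by treatment, and Gria2 overlaps.

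The 11 genes whose digits did not overlap include Gria1 in place of Gria2 and Grik2. In the FTY720 mice alone, 3 against 3, 10 of the 36 genes passed, against 17.7% of all genes. These mice are part of the comparison above, so this count is no independent test, and of the 12 genes past the threshold there Gria2 and Grik4 did not pass (adjusted p = 0.0766 and 0.104, edgeR). In these mice Grm4 had a log2 fold change of 1.61, Gria4 of 1.03 and Grik5 of -0.86.

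Per unit of length, the digits differed in the make-up of several receptor families. Shares of the summed FPKM, a level scaled to gene length and library size, are given here as a description for each mouse. The GC and length trends of the libraries were not removed from them. Grin2c made up 34.9%, 31.7%, 37.1% and 40.6% of the 4 GluN2 transcripts in F1-622, F1-624, F1-918 and P1-623, and 49.4% to 64.0% (median 55.4%) with the digit 3, where Grin2b held 13.6% to 25.1% against 26.9% to 37.6%. The sum over the GluN2 genes was 31.0 to 45.2 FPKM with the digit 1 and 45.8 to 64.2 FPKM with the digit 3, and the FPKM of Grin2b itself overlapped between the digits. The Grin2c to Grin2b ratio was thus 0.844 to 1.39 with the digit 1 and 1.99 to 4.70 with the digit 3. Among group III metabotropic receptors, Grm4 was 35.4%, 38.9%, 46.1% and 42.7% of the sum in the 4 mice with the digit 1 and 69.0% to 74.6% (median 71.5%) in the others. Grm7 was the larger of the pair with the digit 1 at 47.3% to 54.2% and had 21.9% to 26.8% with the digit 3, a reversal of order seen in every mouse. Gria4 took 10.9% to 11.9% of the AMPA sum with the digit 1 and 19.4% to 22.1% with the digit 3, with Gria1 at 48.5% to 53.3% and 36.0% to 42.5%. Grik5 remained the main kainate transcript in all mice, at 69.0% to 78.6% with the digit 1 and 52.5% to 68.6% with the digit 3, and Grik2 held 4.90% to 7.68% and 9.77% to 17%. The shares of Gria2, Gria3, Grin2a, Grik3 and Grik4 overlapped between the digits, as did those of every nicotinic subunit and of the group II pair, in which Grm2 took 38.2% to 40.4% with the digit 1 and 29.8% to 40.4% with the digit 3. The sum over the kainate family was 73.0 to 89.4 FPKM with the digit 1 and 48.9 to 60.6 FPKM with the digit 3, and that over group III receptors 15.03 to 19.65 and 28.9 to 39.4 FPKM. The AMPA sums overlapped, at 132.0 to 154 and 132 to 173 FPKM.

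**Figure D3:**
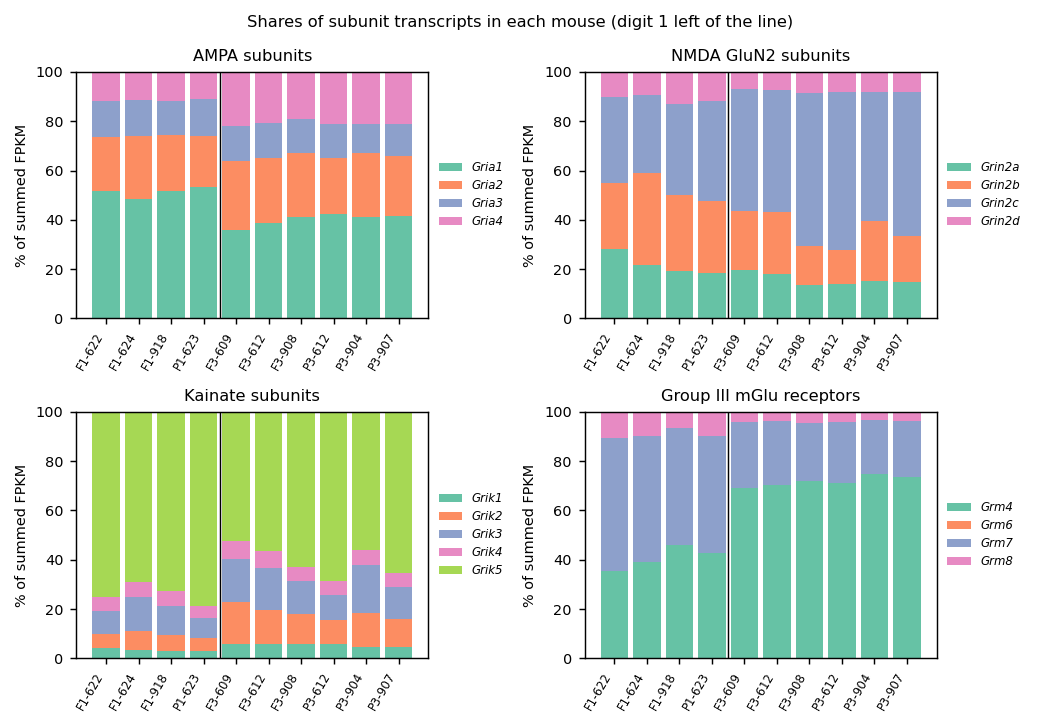
Share of each subunit gene in the summed FPKM of its family (y axis, percent) in each mouse (x axis), for AMPA, GluN2, kainate and group III metabotropic genes, with the 4 mice with the digit 1 left of the line. Grm4 and Grin2c take larger shares in every mouse to the right, and Grik5 smaller ones.

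Nicotinic receptor genes did not pass between the digits in any of 11 tests, against 28.4% of all genes, and none did at an unadjusted p of 0.05 in edgeR, where 7309 of all 17665 genes did. Chrnb2 and Chrna4, which together form the main high-affinity nicotine site of the brain, were the most abundant, at medians of 9.41 and 8.35 FPKM over the 10 mice, and Chrnb2 was the higher in every mouse but F1-918 (ratio of Chrna4 to Chrnb2 0.906 to 1.09 with the digit 1 and 0.824 to 0.962 with the digit 3). Chrnb2 was at 70.5, 80.2, 79.4 and 77.6 CPM in F1-622, F1-624, F1-918 and P1-623 and at 68.6 to 90.4 CPM (median 81.1) with the digit 3 (log2 0.06, standard error 0.09). The gene spans of Chrnb2 and of Adar on the other strand share 7252 bases, introns included. Whether counted exons are shared was not examined, so the reads of Chrnb2 are uncertain. Chrna4 was at 38.3, 45.5, 51.9 and 46.0 CPM and at 39.5 to 50.1 CPM (median 41.1, log2 -0.10, standard error 0.11). Chrna7, the subunit of the homomeric alpha-bungarotoxin site, followed at a median of 2.21 FPKM, above Chrnb1 at 0.975, Chrna6 at 0.884, Chrna3 at 0.676, Chrna5 at 0.517 and Chrnb3 at 0.498 FPKM, whose ranges overlapped one another. Chrnb4, Chrna2 and Chrna1 had medians of 0.322, 0.264 and 0.202 FPKM. Chrna3, Chrna5 and Chrnb4 lie side by side on chromosome 9, with gaps of 2331 and 1591 bases on either side of Chrna3, and Chrna6 and Chrnb3 lie 3481 bases apart on chromosome 8. The standard errors of Chrna1, Chrna2, Chrna3, Chrna5, Chrna6, Chrna7, Chrnb1, Chrnb3 and Chrnb4 ran from 0.23 to 0.34 on the log2 scale. Their log2 fold changes ran from -0.56 (Chrna2) to 0.58 (Chrnb1). Differences as large as those of Grik4 or Grm2 were thus not detectable with this spread between mice in those 9 genes.

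**Figure D4:**
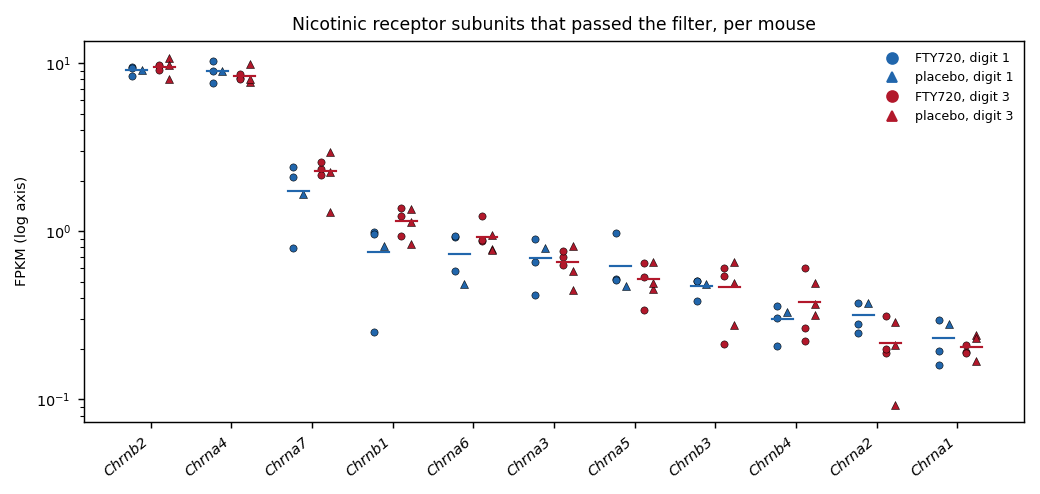
FPKM on a log axis for the 11 nicotinic subunit genes that were tested, with 1 point per mouse (circles FTY720, triangles placebo; blue digit 1, red digit 3) and a bar at each digit's mean. Chrnb2 and Chrna4 lie near 9 FPKM and all others under 3 FPKM, with the digits overlapping throughout.

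Low counts kept 6 genes out of the tests. The retinal bipolar cell receptor Grm6 had 0 to 2 counts per mouse, the hair cell subunits Chrna9 and Chrna10 had 0 to 3 and 1 to 9, and the adult muscle subunit Chrne had 1 to 6. Chrnd and the fetal muscle subunit Chrng had 0 counts in all 10 mice, which allows up to 3 counts or 0.164 to 0.203 CPM per library. Intervals and limits of this kind cover counting error only.

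The companions of the receptors, 67 genes for auxiliary subunits, secreted ligands, scaffolds and downstream signalling, were all tested, and 30 of them (44.8%, 10 higher and 20 lower) passed between the digits, against 28.4% of all genes (13.9% higher and 14.4% lower). Of auxiliary and clustering proteins of AMPA receptors, 1 was higher and 8 were lower of 18. The count was 3 higher and 2 lower of 8 for partners of kainate and delta receptors, 1 and 4 of 9 for NMDA receptors, 1 and 3 of 13 for scaffolds, 3 and 2 of 8 for metabotropic receptors, and 1 and 1 of 11 for nicotinic receptors. With GC and length trends removed, the AMPA receptor list had 4 higher and 7 lower. All 67 companion genes together had 11 higher and 22 lower, against 11% and 13.5% of all genes. Of the 10 with the smallest p, 9 follow, by receptor. Cbln3 and Cbln1 encode cerebellins, secreted proteins that organize synapses. Cbln3 rose from 0.413 to 1.14 CPM with the digit 1 to 251 to 334 CPM with the digit 3 (log2 8.76, standard error 0.19, adjusted p = 8.48e-12, edgeR). Cbln1 was at 24.6 to 39.2 and 166 to 231 CPM (log2 2.52, standard error 0.15). In contrast C1ql2, a secreted partner of kainate receptors at hippocampal mossy fibres, was at 17.2 to 24.3 and 6.02 to 11.0 CPM (log2 -1.26, standard error 0.15). Dao, the oxidase that degrades the NMDA co-agonist D-serine, was at 0.360 to 0.524 and 12.7 to 18.05 CPM (log2 5.13, standard error 0.20). The scaffold gene Homer3 was at 7.14 to 9.47 and 32.7 to 40.5 CPM (log2 2.09, standard error 0.11). The AMPA auxiliary subunit gene Cnih3, the pentraxin receptor gene Nptxr, the scaffold gene Dlgap3 and Ncdn, whose product binds Grm5, were lower, with log2 fold changes of -0.82, -0.80, -0.99 and -0.75 (standard errors 0.10, 0.10, 0.13 and 0.10).

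The second comparison, the one the study was designed for, asked which receptor genes differed between FTY720 and placebo. None of the 36 tested passed an unadjusted p of 0.05 with all mice, against 2.61% of the 14784 protein-coding genes tested, and none passed with DESeq2 or limma-voom either. After adjustment 0 of 17665 genes passed in edgeR, where 461 had an unadjusted p under 0.05, and 0 passed with DESeq2, which had 550. The log2 fold changes of FTY720 over placebo lay between -0.51 (Grin3b) and 0.27 (Chrna6), the smallest unadjusted p was 0.101 (Grin2c), and the median was 0.0130 over the 36 genes and -0.00298 over all. Grin2c was at 55.0 to 147 CPM (median 94.1) in the 6 FTY720 mice and at 151, 171, 157 and 88.8 CPM in P3-612, P3-904, P3-907 and P1-623, so that the groups overlapped (log2 -0.49, standard error 0.28). The 3 FTY720 mice with the digit 1 and P1-623 held the 4 lowest values, and digit and treatment were unevenly mixed.

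Within the 6 mice with the digit 3, 3 of each treatment, 3 of the 36 genes (against 7.99% of all protein-coding genes) passed an unadjusted p of 0.05, 2 higher (against 2.98%) and 1 lower (against 5.01%), and none passed adjustment (smallest adjusted p = 0.648, edgeR, with 1292 of all genes under an unadjusted 0.05, and DESeq2 called 5 genes of all 17665 after adjustment, none of them a receptor gene). Gria3 (ENSMUSG00000001986, chrX:41400854-41678601), which encodes the GluA3 subunit, was at 237, 245 and 199 CPM in F3-609, F3-612 and F3-908 against 185, 198 and 188 CPM in P3-612, P3-904 and P3-907. The FTY720 mice were all above the placebo mice, F3-908 by the least (log2 0.26, standard error 0.11, unadjusted p = 0.0448, edgeR). Grik5 was at 133, 161 and 175 CPM in the same order against 206, 177 and 201 CPM, with F3-908 just below P3-904 (log2 -0.31, standard error 0.13, unadjusted p = 0.0371, edgeR). With GC and length trends removed, none of the 3 passed, and the log2 fold changes were 0.01 for Gria3 and -0.08 for Grik5. With the leading digit of the mouse number as a covariate none of the 3 passed either (log2 0.22 for Gria3 and -0.30 for Grik5). None of the receptor genes passed without F3-609, without F3-612 or without P3-907. The GC trends of the libraries were -0.345, -0.172 and -0.0974 log2 units per 10 points in the FTY720 mice and 0.0783, -0.128 and 0.0479 in the placebo mice, and their part in these values was not tested apart from the removal just given. Markers of endothelium were higher with FTY720 in 3 of 5 in the same mice (167 to 225 CPM summed against 133 to 146 CPM), and markers of oligodendrocytes were lower in 2 of 5 (5216 to 5417 against 6061 to 6840.5 CPM) and of microglia in 2 of 5 (101 to 119.7 against 121 to 159 CPM). General neuronal markers were lower in 2 of 6 (Rbfox3 and Tubb3, 4753 to 4964 against 4742 to 5195 CPM for the list), and hindbrain Hox genes in 2 of the 5 tested (9.12 to 11.9 against 13.9 to 15.1 CPM summed over 6). The lists of cortex and hippocampus, striatum and skeletal muscle each had 1 lower gene and that of granule cells 1 higher, and the part of these markers was not tested.

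With the digit as a covariate over all mice, 4 of the 36 genes passed an unadjusted p of 0.05, against 14.1% of all protein-coding genes, with 1 higher (against 5.64%) and 3 lower (against 8.45%). Gria2 was higher with FTY720 (log2 0.28, standard error 0.12), and Grik5 (log2 -0.34, standard error 0.10, unadjusted p = 3.89e-03, edgeR), Grin1 (log2 -0.26, standard error 0.09) and Grin2c (log2 -0.30, standard error 0.11) were lower. None of these 4 passed adjustment (smallest adjusted p = 0.354, edgeR), and 0 of all 17665 genes did in this fit. With GC and length trends removed in the same fit, Grin1 alone passed (log2 -0.14, unadjusted p = 0.0446, edgeR), and Gria2, Grik5 and Grin2c were at log2 0.01, -0.11 and -0.07. Grik5 was the one gene past the threshold both here and in the mice with the digit 3, and these fits share 6 mice. The difference in the treatment effect between the digits was itself tested, and no receptor gene passed at an adjusted or an unadjusted p of 0.05 with edgeR or DESeq2. Over all genes 0 passed adjustment, and 1.64% of those coding for protein passed before it. P1-623 is the lone placebo mouse with the digit 1 and was assumed to vary like the others.

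**Figure D5:**
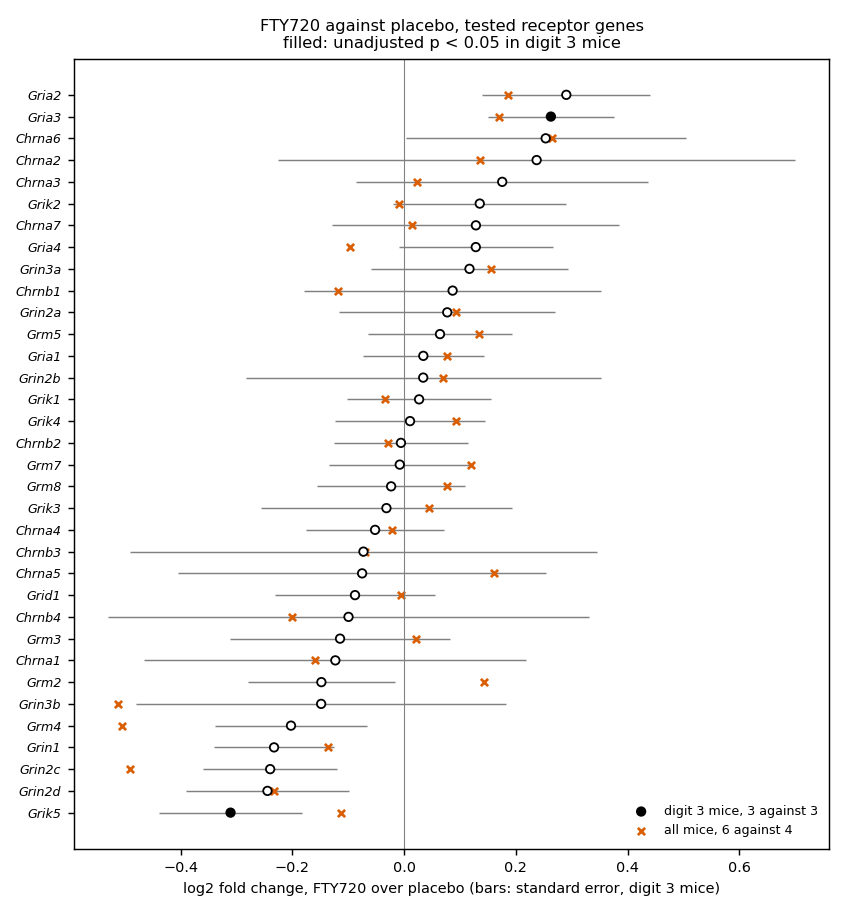
Log2 fold change of FTY720 over placebo (x axis) for 34 of the 36 tested receptor genes (y axis), as circles with standard errors in the 6 mice with the digit 3 and as crosses in all 10 mice. Filled circles (Gria3 and Grik5) had an unadjusted p under 0.05, and Grin3b, Grm4, Grm2 and Grin2c shift most among those shown between the 2 sets of mice.

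Among the 67 companion genes, 2 had an unadjusted p under 0.05 for treatment in all mice, against 2.61% of all protein-coding genes. C1ql3, a secreted relative of C1ql2, was at 29.5 to 48.4 CPM (median 34.3) in the FTY720 mice and at 21.4, 27.2, 25.7 and 27.3 CPM in P3-612, P3-904, P3-907 and P1-623. Every FTY720 mouse was above every placebo mouse (log2 0.56, standard error 0.16, unadjusted p = 3.47e-03, adjusted p = 0.9999, edgeR), and treatment groups did not overlap in 0.804% of all genes. Its log2 fold change was 0.40 (unadjusted p = 0.0149) in the mice with the digit 3. Pick1, which binds the tails of AMPA and kainate subunits, was at 15.6 to 22.1 CPM (median 18.3) against 31.7, 17.3, 22.2 and 26.7 CPM, with P3-904 among the FTY720 values (log2 -0.39, standard error 0.16, unadjusted p = 0.0321, edgeR). In the mice with the digit 3, 2 companion genes were higher and 7 lower (against 2.98% and 5.01% of all protein-coding genes), and with the digit as a covariate 3 were higher and 11 lower (against 5.64% and 8.45%).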

How the data were processed

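Whole-gene counts and FPKM values were analysed for 10 mice. Per the submitters' processing notes, CASAVA 1.8, fastp, HISAT2 2.0.5, featureCounts 1.5.0-p3 and DESeq2 1.20.0 were used with GRCm38/mm10, and reads were paired-end. The strand setting and annotation release are not given in the sources used here. The authors deposited the counts without normalization, and the FPKM values they deposited equal the count over gene length and a total for each library, which differs from the sum of its counts. FPKM was used here for levels and shares, and counts for all tests.

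Counts per mouse totalled 14772745 to 18303981. No pair of libraries agreed within sampling noise (chi-square per degree of freedom at least 16.1 in 45 pairs). Nothing in the sources says which mice share a litter or day. Genes were kept with filterByExpr (smallest group 4), normalized by TMM and tested by the quasi-likelihood method of edgeR 4.0.16 (R 4.3.3), with limma 3.58.1 and DESeq2 1.42.0 as alternatives. Digits were compared with treatment as a covariate at a Benjamini-Hochberg adjusted p of 0.05 over 17665 genes, and treatments with no covariate at an unadjusted p of 0.05 among 14784 protein-coding genes, the criterion of the study. The same genes were kept for the mice with the digit 3. Standard errors were taken as log2 fold change over root F. GC content came from GENCODE M21 transcripts. The scripts were tested on simulated counts. The receptor genes, the companion and marker lists and the comparison of digits were chosen with earlier results of these data known. Genes named with full values were those past a threshold, the highest per length of each family, those with too few counts, the 10 companions with the smallest p, companions past the threshold for treatment, and Slc20a2. Alternatives were other scalings (RLE, upper quartile), filters and tools, limma on log2(FPKM + 0.1) and log2(FPKM + 1), covariates, each mouse left out, and, chosen after seeing the data, removal of GC and length trends. Some of the genes counted are not reported here by name.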

Additional observations from a re-analysis of the deposited data

Results flagged for a closer look

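In 10 of 136 combinations of a receptor gene and a group of mice, 1 mouse stood apart from the others of its group by Dixon's ratio (its gap to the nearest mouse over the range of the group), and chance alone marks about 1 in 20 groups. Several of these combinations share the same mouse. The ratios were taken on log2 CPM with a prior count of 2, whereas the levels printed beside them are CPM. F1-622 was lowest of the FTY720 mice for Chrna7 (3.62 CPM against 9.59 to 11.7 CPM, ratio 0.83), Chrnb1 (0.638 against 2.38 to 3.53 CPM, ratio 0.761) and Chrnb2 (70.5 against 77.5 to 81.4 CPM, ratio 0.657). Among the mice with the digit 1 it was lowest for Chrnb1 (ratio 0.856) and highest for Chrna5 (3.05 against 1.51 to 1.65 CPM, ratio 0.873). F1-918 was highest of the mice with the digit 1 for Grm4 (54.8 against 36.8 to 39.0 CPM, ratio 0.851) and lowest for Chrnb3 (2.46 against 3.14 to 3.26 CPM, ratio 0.871). P1-623, the lone placebo mouse with the digit 1, was lowest of the placebo mice for Grin3b (0.524 against 1.07 to 1.15 CPM, ratio 0.898), which differed between the digits. In the mice with the digit 3, F3-609 was lowest for Grm2 (27.1 against 34.5 to 36.8 CPM, ratio 0.788), and P3-612 was lowest for Chrna7 (5.94 against 9.86 to 13.3 CPM, ratio 0.625).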

How the results depend on the processing

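Between the digits, the count of receptor genes past the threshold was 12 and ran from 10 to 16 over 14 alternatives and from 10 to 12 without each mouse in turn, and that of companion genes was 30 and ran from 28 to 35 and from 26 to 32. Gria4, Grik5, Grin1, Grin2c, Grin3b, Grm2 and Grm4 passed under every alternative that tested them. Over these, the log2 fold change of Grin3b ran from 0.23 to 1.78 and that of Grik5 from -0.94 to -0.57. Gria2 failed in 10 of 24, Grik4 in 3 and Grik2 in 1, and Gria2 turned to -0.17 with GC and length trends removed. That setting also made Gria1, Gria3 (from 0.07 to -0.30), Grin2a, Grin2b, Grm5 and Grm8 pass, all lower. For treatment in all mice, the count of receptor genes rose from 0 to 2 with no filter on low counts, 4 with the digit as a covariate, 3 in the mice with the digit 3 alone and 1 with the covariate and the trends removed, and ran from 0 to 1 without each mouse. The count of companion genes went from 2 to 1 with limma on either FPKM scale, 14 with the covariate, 9 in the mice with the digit 3 and 10 with the covariate and trends removed, and ran from 1 to 4 without each mouse (4 without P3-904, and 1 without F1-622, F3-612, P3-612 or P1-623). In the mice with the digit 3, the 3 receptor genes became 0 with the leading digit of the mouse number as a covariate or the trends removed and ran from 0 (without F3-609, F3-612 or P3-907) to 5 (without P3-904), and the 9 companion genes became 18 with no filter and 14 with all mice and the covariate, and ran from 4 (without F3-609 or P3-907) to 22 (without P3-904), with 16 without F3-908. The cause of these changes was not tested. No paired analysis was possible because the treatment groups share only the number 612. Counts under about 10 per mouse, as for Grm6 and 5 nicotinic genes, limit any comparison.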
